A study of Mus musculus with 16 samples.

Results

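The 7 genes described here are the clock output factors Nfil3, Dbp, Tef, Hlf, Ciart, Bhlhe40 and Bhlhe41, found by symbol among the 54532 Ensembl gene IDs of a table of FPKM values (fragment counts scaled by gene length and library size). All 7 passed the filter on low values, a mean of at least 1 FPKM over the 16 libraries, as did 13271 genes in all. The libraries are RNA-seq of epididymal white adipose tissue, a visceral fat pad, taken from male C57BL/6 mice after 20 weeks on a high-fat diet. In the first cohort, 4 libraries of mice given tubastatin A-HCl, an inhibitor of the deacetylase HDAC6, are set against 4 of mice given vehicle, all aged 25 weeks. In the second, 4 libraries of mice with adipose-tissue-specific loss of Hdac6 (AdKO) are set against 4 of adiponectin-Cre controls (AdCre), all aged 28 weeks and all labelled as vehicle-treated.

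The adiponectin promoter drives Cre in fat cells, so other cells of the pad keep the gene in AdKO mice. The labels also give the vehicle and tubastatin mice the genotype of a global HDAC6 knockout, which the series' design line does not mention. That line also puts the treated mice at about 28 weeks, so the genotype and age behind the drug comparison are uncertain. Hdac6 itself was read at 1.41 to 1.78 FPKM in vehicle, 1.44 to 1.70 in tubastatin, 3.64 to 4.74 in AdCre and 2.66 to 4.11 in AdKO, and whole-gene values of this kind cannot tell if part of the gene was deleted. Nothing in the labels ties each library to its own animal, and the p-values cover only the spread among the libraries, which may be technical. The time of day at which tissue was collected is not given in the sources used here.

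The mammalian clock is a loop in which BMAL1 (gene Arntl) and CLOCK bind E-box sequences and switch on their own repressors, the Per, Cry and Nr1d genes. The same E-boxes drive output factors that pass the rhythm to other genes, and Nfil3 is controlled through the element bound by ROR and REV-ERB receptors. DBP, TEF and HLF, the PAR-bZIP proteins, activate genes that carry a D-box, and NFIL3 (also called E4BP4) represses from the same D-box. CIART (also called CHRONO) represses BMAL1 and CLOCK directly, and BHLHE40 and BHLHE41 (DEC1 and DEC2) compete for their E-boxes. In fat, as in liver, this loop cycles across the day.

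RefSeq promoter windows of GRCm38 were matched for 6 of the 7 genes, and the 250 bases before each start were searched on both strands. The motifs were the E-box CACGTG, the D-box forms TTACGTAA and TTATGTAA, the core TAGGTCA of the element bound by ROR and REV-ERB receptors, and the cAMP response element TGACGTCA. The E-box was found in 6.02% of all 32851 such windows, a D-box of either form in 0.931%, the ROR core in 2.23% and the cAMP response element in 1.55%. In the 12315 windows of tested genes these shares were 8.15, 0.617, 1.72 and 2.42%. None of the motif hits in the members overlapped another. The windows of 4 genes are printed to show where these letters lie, with the E-box, or the ROR core of Nfil3 as read on the opposite strand, in capitals.
Nfil3: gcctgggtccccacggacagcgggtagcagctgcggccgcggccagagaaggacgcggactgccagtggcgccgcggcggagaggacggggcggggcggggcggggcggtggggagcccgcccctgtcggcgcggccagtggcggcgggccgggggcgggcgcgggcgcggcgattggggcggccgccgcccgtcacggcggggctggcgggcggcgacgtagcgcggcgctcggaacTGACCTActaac
Tef: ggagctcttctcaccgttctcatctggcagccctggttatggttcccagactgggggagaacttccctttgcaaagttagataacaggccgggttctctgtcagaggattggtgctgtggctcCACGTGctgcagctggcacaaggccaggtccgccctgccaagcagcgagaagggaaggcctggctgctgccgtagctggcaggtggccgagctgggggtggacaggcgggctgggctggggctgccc
Ciart: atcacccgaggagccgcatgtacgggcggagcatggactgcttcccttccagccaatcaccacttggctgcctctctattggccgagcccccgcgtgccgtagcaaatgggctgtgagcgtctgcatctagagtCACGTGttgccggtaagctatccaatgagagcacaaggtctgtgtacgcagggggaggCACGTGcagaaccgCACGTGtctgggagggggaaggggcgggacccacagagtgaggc
Bhlhe41: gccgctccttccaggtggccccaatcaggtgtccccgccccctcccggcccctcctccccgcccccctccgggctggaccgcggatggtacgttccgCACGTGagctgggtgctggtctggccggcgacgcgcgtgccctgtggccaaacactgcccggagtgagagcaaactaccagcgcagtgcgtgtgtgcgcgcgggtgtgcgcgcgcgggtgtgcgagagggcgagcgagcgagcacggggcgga
The Nfil3 window is chr13:52981040-52981289 on the minus strand, and its ROR core begins at position -12, where -1 is the base before the start. The Tef window is chr15:81802423-81802672 on the plus strand, with an E-box from -127, and a second Tef start has an E-box from -138. Starts here are those of RefSeq. The gene span of Tef given below begins at 81802421, so the printed Tef window lies inside it. That of Nfil3 ends at 52981073, so the Nfil3 ROR core also lies inside its span. The Ciart window is chr3:95882229-95882478 on the minus strand and holds 3 E-boxes, from -116, -58 and -44. The Bhlhe41 window is chr6:145865421-145865670 on the minus strand, with an E-box from -153. The Dbp window, chr7:45704997-45705246, held none of these letters, and that of Hlf, chr11:90390918-90391167, held a cAMP response element from -9. A match is a description of the letters in this window and no evidence of binding.

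Depth, recovered from the whole-number steps of low FPKM values, was 18234386 to 24776803 reads per library. The members rested on 64 to 146 reads per library for Ciart, 95 to 474 for Nfil3, 156 to 462 for Hlf, 443 to 1149 for Bhlhe41, 552 to 1490 for Bhlhe40, 916 to 2102 for Dbp and 2874 to 4836 for Tef, so Ciart is the least precisely counted. Marker genes of fat cells summed to 3119 to 7317 FPKM over the 16 libraries, with none of the 12 at 0 throughout a group. Epididymal epithelium genes were read in AdCre replicates 2 and 3, at a sum of 9.49 and 28.5 FPKM against at most 1.66 elsewhere. The sum of replicate 3 was mostly Epcam, which reached 22.8 FPKM in AdCre. Of the 7 markers 4 were at 0 in replicate 3 and 1 in replicate 2. In bulk tissue, fewer cells of a type and less RNA per cell cannot be told apart.

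The drug comparison asks how fat of mice given the HDAC6 inhibitor differs from that of mice given vehicle. Nfil3, the repressor, stood higher with tubastatin, and the 3 activators Dbp, Tef and Hlf, the repressor gene Ciart and Bhlhe41 stood lower. The ranges of the groups did not overlap for these 6 genes, while Bhlhe40 overlapped. Over all tested genes 7.15% had groups that did not overlap, 3.53% higher and 3.62% lower with tubastatin. No gene of the table passed limma-trend at an adjusted p of 0.05 (0 of 13271, so 0% called, and 1597 genes, 12.0%, at an unadjusted p under 0.05), so none of the members did. With voom on recovered reads 1 gene passed, which was not a member, and 1643 had an unadjusted p under 0.05. Of the members, 6 had an unadjusted p under 0.05, 1 higher and 5 lower, beside 5.94% and 6.10% of all genes in those directions. Of the 7 fold changes 1 was positive and 6 negative (45.4% and 54.6% of all genes), with a median of -0.39 against -0.015 over all tested genes. The members and the gene lists below were chosen with earlier results of these data known. Their shares beside those of all genes are thus a description and no test.

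**Figure D1:**
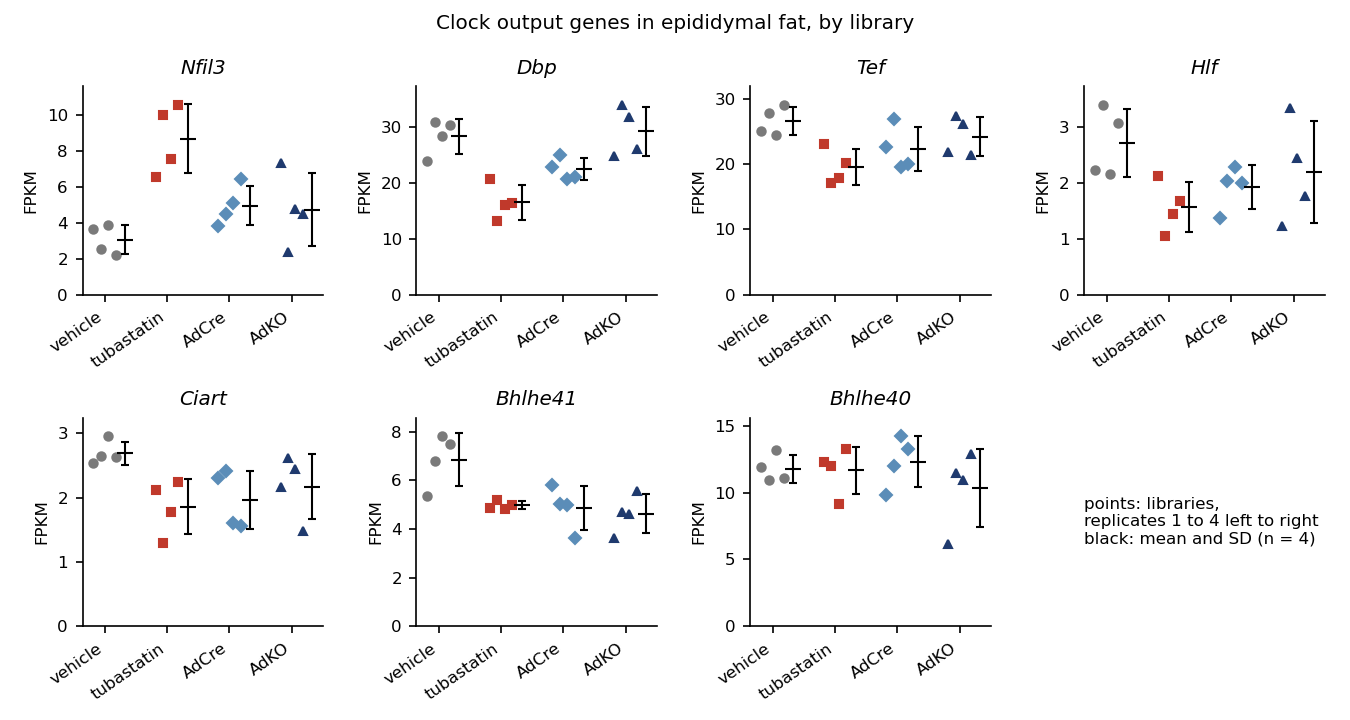
FPKM of the 7 clock output genes (y axes, each from 0) in the 4 groups (x axes), with a point per library and the mean and SD of 4 libraries in black. Every tubastatin library lies above every vehicle library for Nfil3 (lowest 6.55 against highest 3.88) and below it for Dbp, Tef, Hlf, Ciart and Bhlhe41, while the AdCre and AdKO points overlap in each panel.

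Nfil3 (ENSMUSG00000056749, chromosome 13, 52967209 to 52981073 in GRCm38) is the repressor that competes with the PAR-bZIP proteins for the D-box. It was at 3.66, 2.57, 3.88 and 2.21 FPKM in vehicle replicates 1 to 4. In tubastatin replicates 1 to 4 it was at 6.55, 10.03, 7.59 and 10.6 FPKM. Replicate 1 was the lowest of the treated libraries and still above the highest vehicle library. The means were 8.69 ± 1.93 and 3.08 ± 0.811 FPKM (SD, n = 4 each), a ratio of 2.82. The log2 fold change of FPKM + 1 was 1.25 (SE 0.18, 95% interval 0.83 to 1.66, limma adjusted p = 0.153), the eighth smallest p of the table. With a library left out in turn the fold change ranged from 1.14 to 1.36.

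Dbp (ENSMUSG00000059824, chromosome 7, 45705088 to 45710203), a PAR-bZIP gene with a strong daily rhythm in many tissues, stood the other way. It was at 23.9, 30.8, 28.4 and 30.3 FPKM in vehicle replicates 1 to 4 and at 20.7, 13.1, 16.1 and 16.5 in tubastatin replicates 1 to 4. Tubastatin replicate 1, lowest of its group for Nfil3, was the highest for Dbp. The log2 fold change was -0.75 (SE 0.13, 95% interval -1.06 to -0.44, limma adjusted p = 0.181), and the ratio of means was 0.585. Dbp shares 539 exonic bases with Sphk2 on the opposite strand, and whether counting used strand is not given in the sources used here. Sphk2 differed by -0.09 (SE 0.09, limma adjusted p = 0.675).

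Tef (ENSMUSG00000022389, chromosome 15, 81802421 to 81826863) was about as abundant as Dbp on the FPKM scale, with means over all libraries of 23.1 and 24.2 FPKM. It was at 25.0, 27.8, 24.4 and 29.0 FPKM in vehicle and at 23.1, 17.1, 17.8 and 20.1 in tubastatin replicates 1 to 4. The gap between the groups was narrow, 23.1 against 24.4 FPKM, and it closed when values were scaled as TPM or by quantile normalization. Its log2 fold change was -0.43 (SE 0.10, 95% interval -0.66 to -0.20, limma adjusted p = 0.269).

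Hlf (ENSMUSG00000003949, chromosome 11, 90336536 to 90390895), the third PAR-bZIP gene, was the least abundant of them. It was at 2.24, 3.40, 2.17 and 3.07 FPKM in vehicle and at 2.12, 1.06, 1.44 and 1.67 in tubastatin. Replicate 1 was again the treated library nearest to vehicle, 2.12 against 2.17 FPKM, and the groups overlapped as TPM. The log2 fold change was -0.53 (SE 0.16, 95% interval -0.89 to -0.18, limma adjusted p = 0.321).

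Because NFIL3 and the PAR-bZIP proteins bind the same sites, the transcript of the repressor was set against the summed transcripts of the activators in each library. Nfil3 FPKM came to 7.15, 4.15, 7.05 and 3.55% of the sum of Dbp, Tef and Hlf FPKM in vehicle replicates 1 to 4. In tubastatin replicates 1 to 4 it came to 14.3, 32.0, 21.5 and 27.7%. In AdCre it was 8.15 to 14.9% and in AdKO 3.69 to 15.3%. The treated libraries other than replicate 1 lay above every other library. That of replicate 1 lay below AdKO replicate 1, at 15.3%, and AdCre replicate 4, at 14.9%. This share is built from the members and is given without a test, and it says nothing of protein.

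Of the repressors that act on the E-box, Ciart (ENSMUSG00000038550, chromosome 3, 95878503 to 95882251) was at 2.54, 2.64, 2.95 and 2.63 FPKM in vehicle. It was at 2.12, 1.29, 1.78 and 2.24 in tubastatin, so the groups did not overlap. For Ciart the log2 fold change was -0.38 (SE 0.11, 95% interval -0.64 to -0.12, limma adjusted p = 0.325). Bhlhe41 (ENSMUSG00000030256, chromosome 6, 145858243 to 145865558), which encodes DEC2, was at 5.34, 6.81, 7.81 and 7.48 FPKM in vehicle and at 4.85, 5.19, 4.83 and 5.01 in tubastatin. The treated libraries lay close together, just under the lowest vehicle library. Its log2 fold change was -0.39 (SE 0.10, limma adjusted p = 0.291), and 1280 of its 6720 exonic bases are shared with an unclassified transcript on the opposite strand.

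Bhlhe40 (ENSMUSG00000030103, chromosome 6, 108660629 to 108666925), which encodes DEC1, stood apart from the other members. It was at 11.9, 10.9, 13.2 and 11.1 FPKM in vehicle and at 12.3, 12.0, 9.15 and 13.3 in tubastatin, and the groups overlapped across most of their range. The log2 fold change was -0.02 (95% interval -0.27 to 0.23, limma adjusted p = 0.954), and its sign turned with TPM, quantile normalization or voom.

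Around the output genes, the core loop was read from activators and from a list of 7 repressors, all 7 tested, and 0 of these genes were called. Of the activators, Arntl (BMAL1) was higher without overlap, at 1.65 to 2.34 against 0.778 to 1.26 FPKM (0.56 on the log2 scale, SE 0.11, limma adjusted p = 0.219). Its partner Clock differed by 0.0073 and the receptor gene Rora by -0.09, both overlapping, and Npas2 was below the filter. Of the repressors, 6 of 7 had a negative fold change and an unadjusted p under 0.05, where 6.10% of all genes did. They were Nr1d1 (-0.48), Per2 (-0.43), Per3 (-0.39), Nr1d2 (-0.39), Cry1 (-0.30) and Cry2 (-0.30), with limma adjusted p-values of 0.281 to 0.384. Cry1 and Nr1d1 did not overlap, while Per1 differed by 0.13 (SE 0.20). The median over the 7 repressors was -0.39, close to that of the members.

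**Figure D2:**
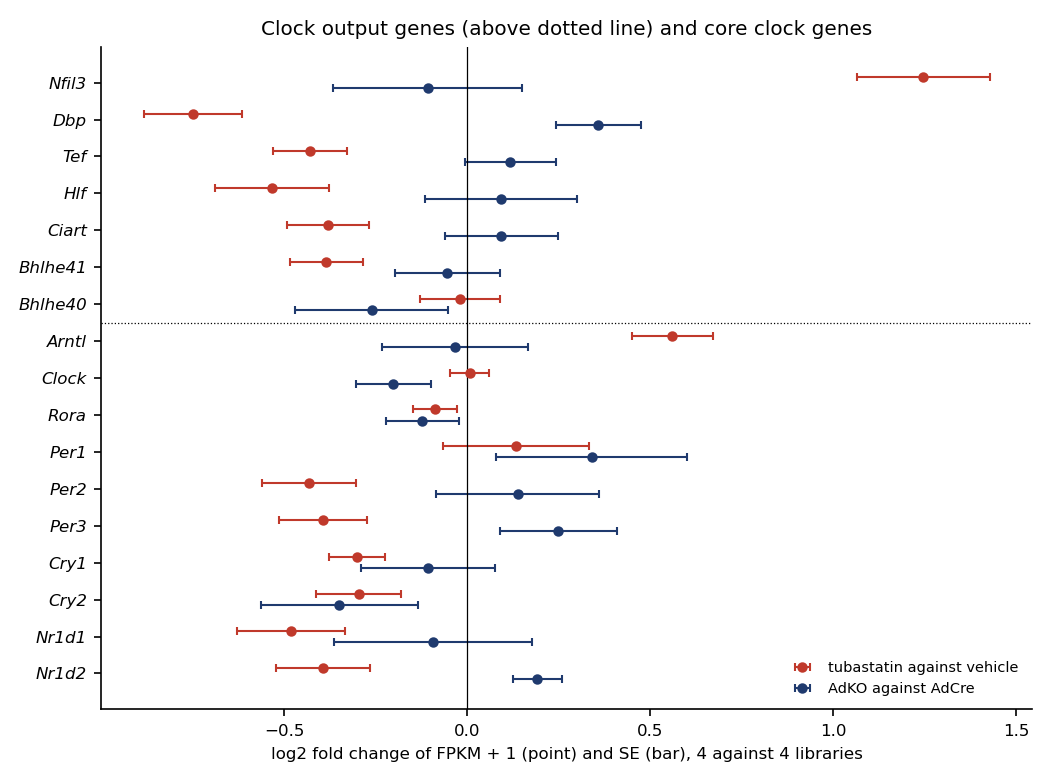
Log2 fold change of FPKM + 1 (x axis, point) with its SE (bar) for the output genes above the dotted line and the core clock genes below it, for tubastatin against vehicle in red and AdKO against AdCre in blue, 4 against 4 libraries each. Nfil3 (1.25) and Arntl (0.56) lie to the right in red and most other genes to the left, while the blue points lie on both sides of 0, with Dbp at 0.36 and Bhlhe40 at -0.26.

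A further list held 12 genes known to follow the clock in several tissues. All 12 were tested, 0 were called, and 5 had an unadjusted p under 0.05, each of them lower with tubastatin (6.10% of all genes). Of the 12 fold changes 5 were positive and 7 negative (45.4% and 54.6% of all genes), with a median of -0.12. Fmo2, which encodes a flavin-containing monooxygenase, was at 10.6 to 18.6 FPKM against 26.1 to 45.3 in vehicle (-1.19 on the log2 scale, SE 0.21, limma adjusted p = 0.179). Lpin1, which encodes the phosphatidate phosphatase lipin 1, was at 16.9 to 21.9 against 23.8 to 36.3 FPKM (-0.50, limma adjusted p = 0.321). Tspan4, a tetraspanin gene, was at 45.9 to 51.1 against 52.4 to 57.1 FPKM (-0.17, limma adjusted p = 0.354). In all 3 the highest treated library lay below the lowest vehicle library.

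Cell type markers also differed between these libraries, and their part in the clock values was not tested. All 12 fat cell markers had a negative fold change (median -0.29), with a summed level of 3119 to 3637 FPKM in tubastatin and 3287 to 5790 in vehicle. The 5 tested neutrophil markers of 8 were higher (median 0.71), with sums of 20.8 to 41.0 against 11.2 to 19.1 FPKM. All 8 tested T and NK cell markers of 11 were lower (median -0.57), with sums of 14.9 to 39.3 against 29.0 to 67.4 FPKM. All 7 B and plasma cell markers were lower (median -0.70), with sums of 157 to 384 against 232 to 722 FPKM, as were all 6 mast cell markers (median -0.42), with sums of 248.9 to 481 against 361 to 789 FPKM. Endothelial, adipose progenitor and mesothelial markers had medians of -0.03, 0.02 and 0.16. Macrophage markers were split, 5 of 10 in each direction, at 3134 to 3809 against 2476 to 3675 FPKM.

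The second comparison asks how the pad of AdKO mice differs from that of the Cre controls. None of the 7 members passed limma-trend (0 of 13271 genes, so 0% called, with 1452 genes, 10.9%, at an unadjusted p under 0.05), and all 7 overlapped between the groups, where 6.48% of all genes did not (2.78% higher, 3.70% lower in AdKO). With voom 0 genes passed and 1353 had an unadjusted p under 0.05. Their median log2 fold change was 0.09, against 0.0041 over all tested genes, with 4 positive and 3 negative (50.9% and 49.1% of all genes). Nfil3 was at 3.83, 4.52, 5.11 and 6.44 FPKM in AdCre replicates 1 to 4 and at 7.32, 2.39, 4.79 and 4.50 in AdKO replicates 1 to 4. The AdKO libraries held both the highest and the lowest value of the cohort, and the log2 fold change was -0.11 (SE 0.26, 95% interval -0.70 to 0.49, limma adjusted p = 0.881). Its sign turned without AdKO replicate 2 (0.12) or AdCre replicate 4 (0.0036).

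Dbp was the member nearest to a difference. It was at 22.9, 25.1, 20.7 and 21.1 FPKM in AdCre and at 24.9, 34.0, 31.9 and 26.2 in AdKO, so the groups met between 24.9 and 25.1. The log2 fold change was 0.36 (SE 0.12, 95% interval 0.09 to 0.62, limma adjusted p = 0.368), and it was the 1 member with an unadjusted p under 0.05 (4.78% of all genes higher, 6.16% lower). The groups did not overlap as TPM, with quantile normalization, or without AdKO replicate 1, AdCre replicate 2 or AdCre replicates 2 and 3. Without the last pair, where epididymal epithelium genes were read, the fold change was 0.38.

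The other PAR-bZIP genes differed less than their spread. Tef was at 22.6, 26.9, 19.5 and 20.0 FPKM in AdCre and at 21.9, 27.4, 26.1 and 21.4 in AdKO (0.12 on the log2 scale, SE 0.12, limma adjusted p = 0.722). Hlf was at 1.37, 2.03, 2.29 and 2.01 against 1.22, 3.34, 2.44 and 1.77 FPKM (0.09, SE 0.21, limma adjusted p = 0.871). AdKO replicate 2 had the highest value of its group for Dbp, Tef and Hlf and the lowest for Nfil3, and AdKO replicate 1 the lowest for Dbp and Hlf and the highest for Nfil3.

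The E-box repressors behaved likewise. Ciart was at 1.55 to 2.40 FPKM in AdCre and 1.48 to 2.61 in AdKO (0.09 on the log2 scale, SE 0.15, limma adjusted p = 0.822). Bhlhe41 was at 3.62 to 5.80 and 3.62 to 5.56 FPKM (-0.05, SE 0.14, limma adjusted p = 0.895). Bhlhe40 was at 9.85 to 14.2 and 6.15 to 12.9 FPKM (-0.26, SE 0.21, limma adjusted p = 0.645), with AdKO replicate 1 the lowest of all 16 libraries and a fold change of -0.053 without it.

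Core clock genes showed no common direction in AdKO. Of the 7 repressors 4 were positive and 3 negative, and 1 had an unadjusted p under 0.05 and no overlap, where 4.78% of all genes were higher at that p. It was Nr1d2, which encodes REV-ERB beta, at 18.6 to 21.2 against 16.5 to 18.4 FPKM (0.19 on the log2 scale, SE 0.067, limma adjusted p = 0.402). Of the activators, Arntl differed by -0.03 (SE 0.20), Clock by -0.20 (SE 0.10) and Rora by -0.12 (SE 0.10), each overlapping between the groups. Of the 12 other clock-controlled genes 1 had an unadjusted p under 0.05, where 10.9% of all genes did. It was Leo1, which encodes a subunit of the PAF1 elongation complex, at 3.11 to 3.43 against 3.86 to 4.66 FPKM (-0.32, limma adjusted p = 0.257). Fat cell marker sums ranged more widely here, from 3156 to 7168 FPKM in AdKO and 5577 to 7317 in AdCre, neutrophil sums from 17.7 to 162 and 24.2 to 44.1 FPKM, and mesothelial sums from 84.4 to 174 and 47.9 to 91.1 FPKM. Positive fold changes were found for 4 of 5 tested neutrophil markers (median 1.28), all 6 tested mesothelial markers (0.92), all 8 tested T and NK cell markers (0.43), all 7 B and plasma cell markers (0.40) and all 10 macrophage markers (0.24). Negative ones were found for all 6 mast cell markers (median -0.35), 11 of 12 fat cell markers (-0.31) and all 7 endothelial markers (-0.19), while 5 of 7 adipose progenitor markers were positive (0.08). Their part in the members' values was not tested.

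Whether the drug and knockout effects differ was tested as the difference of the 2 log2 fold changes over all 16 libraries. None of the members passed (0 of 13271 genes, so 0% called, with 1198 genes, 9.03%, at an unadjusted p under 0.05), and 5 of 7 had an unadjusted p under 0.05, 1 positive and 4 negative (4.46% and 4.57% of all genes). Of all 7 differences 2 were positive and 5 negative (49.4% and 50.6% of all genes). With voom 0 genes passed and 1071 had an unadjusted p under 0.05. Dbp had the third smallest p of the table. Its difference was -1.11 (SE 0.18, 95% interval -1.50 to -0.72, limma adjusted p = 0.0882), with both cohorts contributing, -0.75 and 0.36. It passed with array weights (limma adjusted p = 0.0469) and without tubastatin replicate 1 (-1.22, limma adjusted p = 0.0388), and over all alternatives its adjusted p ranged to 0.270. Nfil3 differed by 1.36 (SE 0.34, limma adjusted p = 0.212), Tef by -0.55 (0.339), Hlf by -0.63 (0.519) and Ciart by -0.47 (0.495), with limma adjusted p-values in parentheses. Bhlhe41 differed by -0.33 (SE 0.18, limma adjusted p = 0.616) and Bhlhe40 by 0.24 (SE 0.25, limma adjusted p = 0.797).

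Over the 4 groups, the order of mean levels followed a common form for 4 of the members. Tef, Hlf and Ciart were ordered vehicle, AdKO, AdCre and tubastatin from high to low, and Dbp AdKO, vehicle, AdCre and tubastatin. Neighbours in these orders overlapped in their library ranges, except AdCre and tubastatin for Dbp, at 20.7 to 25.1 and 13.1 to 20.7 FPKM, where the lowest AdCre library lay just above the highest treated one. Nfil3 had tubastatin at the top, above AdCre at 4.97 ± 1.11 FPKM without overlap (SD, n = 4), followed by AdKO and vehicle, which overlapped their neighbours. The gap to AdCre was narrow, with the lowest treated library at 6.55 FPKM and the highest AdCre library at 6.44. Tubastatin did overlap AdKO, whose replicate 1 was at 7.32 FPKM. Bhlhe41 had vehicle at the top, above tubastatin without overlap, followed by AdCre and AdKO. Vehicle, with its lowest Bhlhe41 value at 5.34 FPKM, did overlap AdCre and AdKO, which reached 5.80 and 5.56. Bhlhe40 means lay between 10.4 and 12.3 FPKM and all neighbours overlapped. The cohorts differ in labelled age and genotype together, so no test was made between them.

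The output genes also varied together among libraries of the same group. For this description log2(FPKM + 1) of each gene was centred on its group mean, and Pearson's r was taken over the 16 libraries, which share a centre within each group of 4. Nfil3 ran against Dbp (r = -0.71, Spearman's rho = -0.67), Tef (r = -0.63) and Hlf (r = -0.67). Without AdKO replicates 1 and 2, the libraries farthest from the median of Nfil3, these were -0.62, -0.57 and -0.33, so the relation with Hlf rests largely on those libraries. Dbp ran with Tef (r = 0.88, rho = 0.88), Hlf (r = 0.75) and Ciart (r = 0.71), and these were 0.85, 0.70 and 0.64 without tubastatin replicates 1 and 2. Bhlhe40 and Bhlhe41 followed none of the PAR-bZIP genes closely, with r from 0.05 to 0.48. Cell type marker sums varied within groups too. In AdKO replicates 1 to 4 fat cell sums were 3644, 6783, 7168 and 3156 FPKM, and macrophage sums 3729, 1993, 2053 and 3260. In tubastatin, where Dbp ran from 13.1 to 20.7 FPKM, fat cell sums ran from 3119 to 3637 and macrophage sums from 3134 to 3809. T and NK cell sums there ran from 14.9 to 39.3 FPKM, and B and plasma cell sums from 157 to 384. The part of cell content in these r values was not tested.

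**Figure D3:**
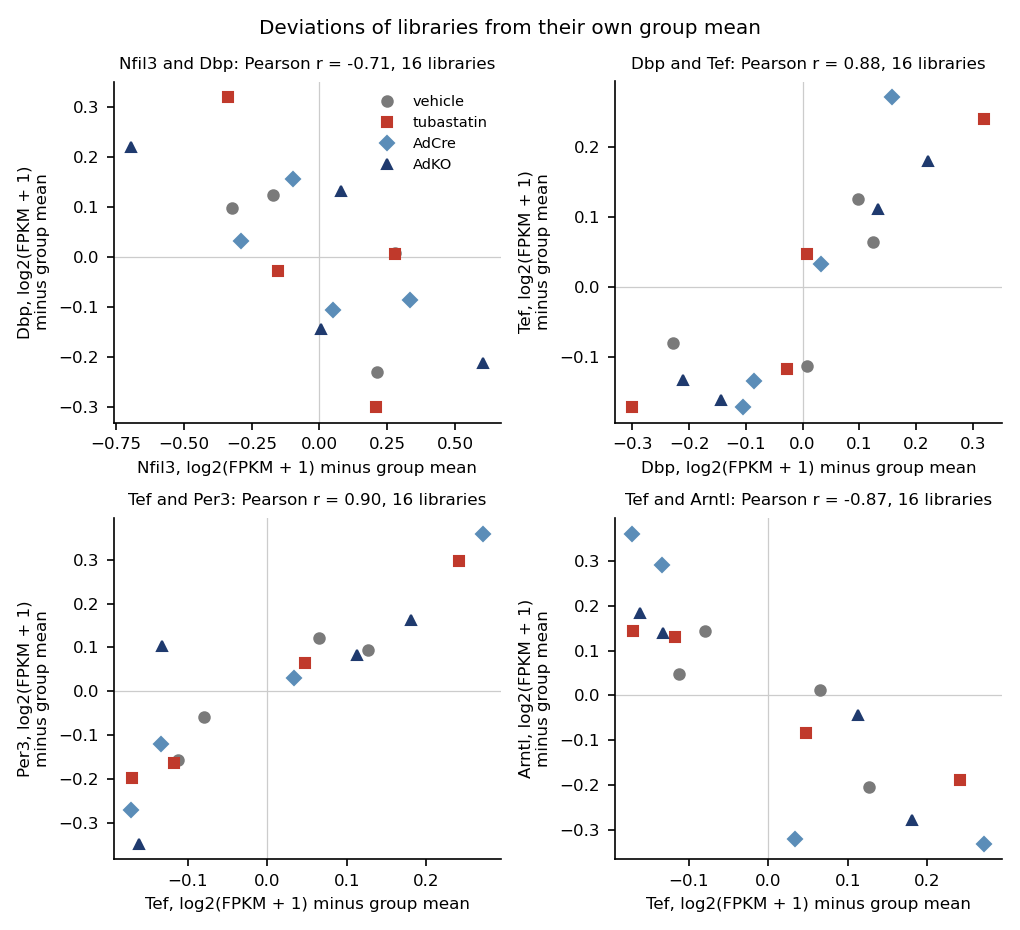
Deviation of each of the 16 libraries from its own group mean, in log2(FPKM + 1), for Nfil3 and Dbp, Dbp and Tef, Tef and Per3, and Tef and Arntl (x and y axes), with a marker per group. The points fall along a descending line for Nfil3 and Dbp (r = -0.71) and for Tef and Arntl (r = -0.87), and along a rising line for the other pairs (r = 0.88 and 0.90), with libraries of all 4 groups on both sides of 0.

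Ranked over all 13270 other tested genes by this r, Tef was most like Per3 (r = 0.90, rho = 0.88) and least like Arntl (r = -0.87, rho = -0.87), the activator gene of the loop. Without the 2 libraries farthest on Tef, AdCre replicate 2 and tubastatin replicate 1, these were 0.83 and -0.85. Tef was in turn the gene most like Dbp, followed by Esyt1 (r = 0.87) and Rgma (r = 0.87), while Sun2 (r = 0.90) and Dbp followed Per3 for Tef. For Ciart the genes Cry1 (r = 0.78), Per3 (r = 0.78) and Per2 (r = 0.77) stood at places 5, 6 and 8, and Arntl (r = -0.78) was the seventh from the bottom. The 3 genes most like Ciart were Anapc16 (r = 0.88), Crebrf (r = 0.82) and Wdr62 (r = 0.80).

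Hlf kept other company. Among its nearest genes were Clstn1 (r = 0.95) and Igfbp5 (r = 0.93), and Nr1d1 (r = 0.88) stood at place 22, while Dbp stood at place 521. Those nearest to Nfil3 were Rngtt (r = 0.88), Mir7-1 (r = 0.87), a microRNA gene whose reads cannot be told apart from those of its host gene, and Zfp52 (r = 0.83), with Arntl at place 185 (r = 0.64). Bhlhe40 was most like Tma16 (r = 0.89), Nhsl1 (r = 0.89) and Heatr3 (r = 0.86), and Bhlhe41 most like Hoxa6 (r = 0.84), Coil (r = 0.83) and Abcc4 (r = 0.78).

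**Figure D4:**
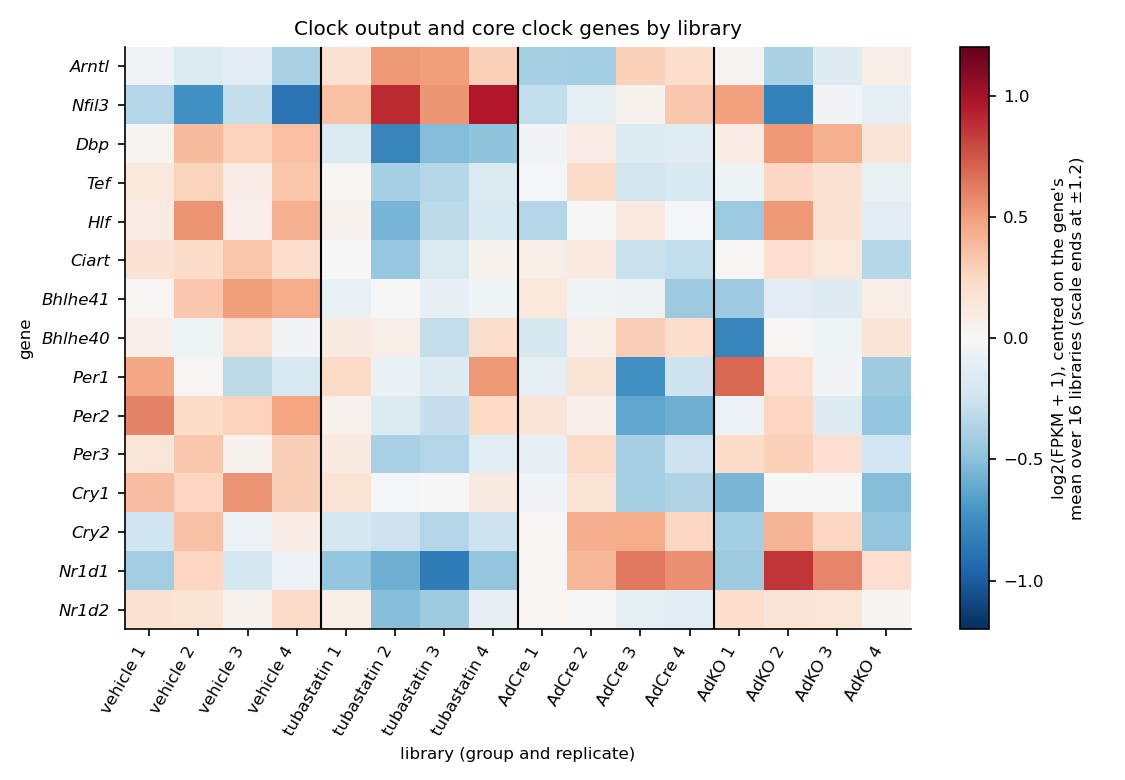
Log2(FPKM + 1) of the output genes and of Arntl and the core repressors (rows) in the 16 libraries (columns, by group), each gene centred on its mean over all libraries, red above and blue below. Tubastatin replicates 2 to 4 show the highest Nfil3 and low Dbp, Tef and Hlf. AdKO replicate 2 shows low Nfil3 and high Dbp, at 2.39 and 34.0 FPKM.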

How the data were processed

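Total RNA of epididymal fat was extracted with Trizol, DNase-treated and cleaned on RNeasy columns, per the labels' protocols. The authors deposited 1 table of FPKM values for 16 libraries in 4 groups of 4. Each column matched a sample by title. Aligner, counting tool, genome build and use of strand: not given in the sources used here. Of the 54532 gene IDs 54409 had a symbol in the reference names. Multiplying by GENCODE M21 exon lengths (GRCm38) turned 96.3 to 96.5% of non-zero values into whole reads, to within 0.01, and this gave the depth. Libraries of a group differed by 15.5 to 122 in chi-square per gene, beyond sampling noise.

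Tests ran on log2(FPKM + 1) of the 13271 genes averaging 1 FPKM or more, by limma-trend (R 4.3.3 with limma 3.58.1), with p-values adjusted by Benjamini-Hochberg over all of them at 0.05. Low genes change less on this scale than in FPKM. A comparison took the 8 libraries of its cohort, and the difference of effects took all 16. The test was checked on simulated data. The members and gene lists were chosen with earlier results of these data known. Named genes are the 7 members, the core clock lists, up to 3 genes per other list with the smallest p, and the 3 genes most like each member, with predicted genes left out, and some of these are not reported here. Sphk2 was named after its overlap with Dbp was seen. Promoter sequences are from RefSeq (GRCm38), and that of Bhlhe40 was not used here. Other settings tried were a pseudocount of 0.1 or 0.5, no filter, a filter at 5 FPKM, TPM, quantile normalization, median-of-ratios factors, array weights, voom on 12622 genes with recovered reads, 1 spread for all libraries, a replicate block, and libraries left out.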

Additional observations from a re-analysis of the deposited data

How the results depend on the processing

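Under 19 alternatives no member was called for tubastatin against vehicle, and under 20 none for AdKO against AdCre. The fold changes of Nfil3, Dbp, Tef, Hlf, Ciart and Bhlhe41 with tubastatin kept their sign in all of them, except that Hlf and Ciart were not tested at a mean FPKM of at least 5. The cause of the moves below was not tested.

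The count of genes called, 0 in each comparison, became 3 with no filter, 1 as TPM, 1 with voom and 8 with 1 spread for tubastatin, and 2 with no filter and 43 with 1 spread for AdKO. For the difference of effects it became 1 with no filter and 6 with array weights, which also called 1 member, Dbp (-1.17). With a library left out these counts ranged from 0 to 2, 0 to 1 and 0 to 5, and the members called in the difference from 0 to 1. The members without overlap went from 6 to 4 as TPM and to 5 with quantile normalization for tubastatin, and from 0 to 1 (Dbp) for AdKO as TPM, with quantile normalization and without AdCre replicates 2 and 3, and ranged from 0 to 1 with a library left out.

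Signs turned for Bhlhe40 with tubastatin as TPM (0.055), with quantile normalization (0.0066) and with voom (0.023), and ranged from -0.080 to 0.084 with a library left out. In AdKO they turned for Bhlhe41 with array weights (0.033), and with a library left out Bhlhe41 ranged from -0.16 to 0.037, Nfil3 from -0.31 to 0.12 and Hlf from -0.070 to 0.25.

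Same-numbered libraries did not deviate together with tubastatin (r = -0.10 to 0.02). For AdKO and AdCre the signs were mixed, with r of 0.33, -0.23, 0.21 and -0.22 for replicates 1 to 4. Not every library correlated best with its own number, so the numbers are not taken as pairs. The replicate block called 0 genes in each comparison, with Nfil3 at an adjusted p of 0.403 and Dbp at 0.403 with tubastatin. Ciart, at 64 to 146 reads, is limited most by depth.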

Other observations

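Other gene groups that border on these factors were read in the same fits, and 0 of their genes were called in any comparison. Of 5 C/EBP genes, which encode bZIP factors of fat cell formation, Cebpb was at 51.3 to 67.8 FPKM with tubastatin against 44.0 to 52.7 with vehicle (0.43 on the log2 scale, SE 0.11, limma adjusted p = 0.275) and Cebpd at 11.02 to 22.1 against 8.11 to 15.2 FPKM (0.64, SE 0.25, limma adjusted p = 0.382). The stress-induced relative Ddit3 was at 9.99 to 11.49 against 11.2 to 16.8 FPKM (-0.32, SE 0.11, limma adjusted p = 0.360). In AdKO, Cebpd was at 13.0 to 26.0 FPKM against 7.32 to 12.4 in AdCre (0.66, limma adjusted p = 0.393) and Ddit3 at 10.003 to 14.3 against 14.7 to 17.4 (-0.38, limma adjusted p = 0.327), both without overlap.

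Of 8 genes for factors of innate lymphoid and dendritic cells, the lineages in which Nfil3 acts outside the clock, 5 were tested, and 0 had an unadjusted p under 0.05 for either tubastatin or AdKO. Of 10 hypoxia genes, the response that also induces Bhlhe40, 9 were tested. Egln3, which encodes the oxygen sensor PHD3, was at 2.38 to 4.28 FPKM with tubastatin against 1.56 to 2.20 with vehicle, without overlap (0.54, SE 0.14, limma adjusted p = 0.291). It was the 1 gene of the list with an unadjusted p under 0.05 there, where 12.0% of all genes had such a p. In AdKO, where 10.9% of all genes had such a p, that gene was Adm, which encodes adrenomedullin (-0.23, SE 0.09, limma adjusted p = 0.444). Fmo2 had a fold change of the opposite sign in AdKO (0.74 on the log2 scale, SE 0.36, limma adjusted p = 0.499). The groups overlapped, at 14.6 to 50.3 FPKM in AdKO against 9.91 to 18.1 in AdCre. The difference of the Fmo2 effects was -1.93 (SE 0.44, limma adjusted p = 0.206).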
